A study of Mus musculus with 4 samples.

Results

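The genes described here are 39 host genes of the interferon response and of class I antigen presentation, chosen by name. Of these, 33 had a probe set of their own among the 19938 genes that the arrays measured. Expression had been read on Affymetrix mouse Gene 1.0 ST arrays in cortical neuron cultures prepared from newborn pups (postnatal day 0) of a mixed SV129 x C57BL/6 strain. Some pups were Syt1 deficient and others wild type, and the labels do not assign these genotypes to arrays. All cultures carried lentivirus, given at day 5 in vitro, and RNA was taken at day 14 or 15. Control cultures had received a control lentivirus, knockdown cultures lentivirus with shRNAs against calmodulin, and rescue cultures those shRNAs with an shRNA-resistant wild-type calmodulin. The values were 4 ratios, from 2 knockdown and 2 rescue samples, each set against the control array of its own repeat, so the knockdown and the rescue of a repeat share a control. The labels do not state whether the repeats were separate cultures, so the spread behind each p-value may be technical.

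Interferons are secreted when cells detect foreign nucleic acid, above all viral RNA. They bind receptors that signal through JAK kinases to a complex that includes Stat2 and Irf9, which switches on a large set of antiviral genes through a DNA element called the interferon-stimulated response element (ISRE). Neurons, astrocytes and microglia can all mount this response, and interferons also raise the class I machinery that shows peptides to T cells, which neurons hold low at rest.

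These genes stood above control in a single sample, knockdown repeat 2. There 32 of the 33 had a ratio above 1 (52.4% of all genes did), Stat2 being the exception, and their median was 0.55 on the log2 scale, a ratio of 1.46, beside a median of 0.02 over all genes. In knockdown repeat 1 the median was -0.03, with 14 of 33 above control (47% of all genes). In the rescue it was 0.04 in repeat 1 and 0.05 in repeat 2, with 17 and 22 of 33 above control (48.1% and 47.1% of all genes). All genes had medians of -0.02, -0.01 and -0.01 in those 3 samples. In knockdown repeat 2, 10 of the 33 were at least 1.5-fold above control, as were 3.91% of all genes, and 0 were as far below it (4.54% of all genes). In knockdown repeat 1, 0 were that far above control (0.813% of all genes) or below it (1.7%). In the rescue, Ccl5 and Cxcl10 were that far above it in repeat 1 (1.16%), and Cxcl10 in repeat 2 (0.978%), while Mx2 was that far below it in repeat 1 (1.11%). The rise in repeat 2 is a reading of 1 array, so it has no replicate check. In bulk cultures, a difference in the number of cells of a type and one in RNA per cell cannot be told apart.

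**Figure D1:**
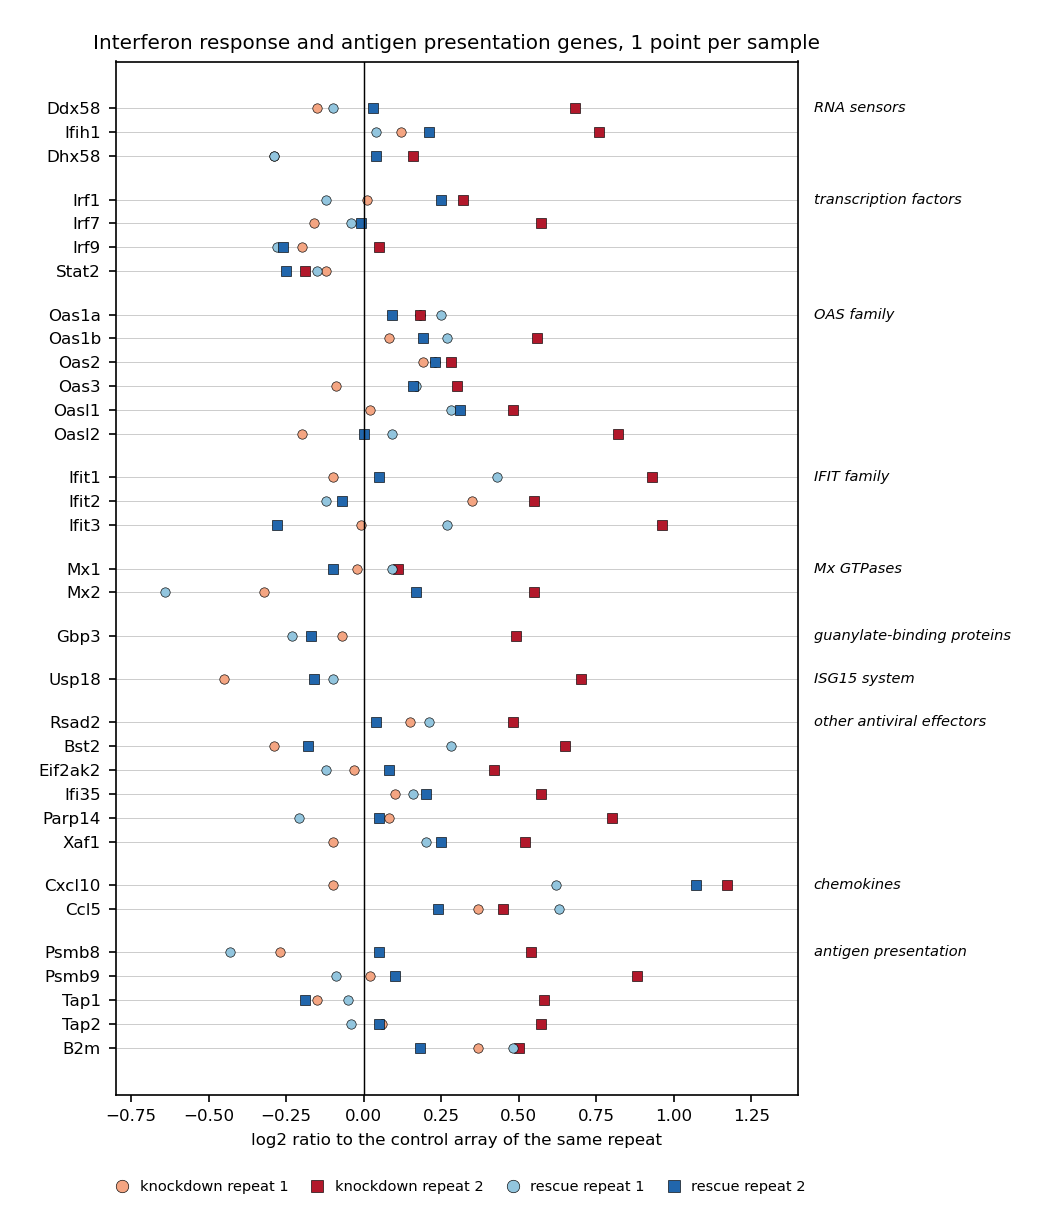
Log2 ratio to the control array of the same repeat (x axis) for the 33 measured genes (rows, grouped by role), with 1 point per sample: knockdown in red, rescue in blue, circles for repeat 1 and squares for repeat 2. The dark red squares of knockdown repeat 2 are the highest of the 4 points for 30 of the 33 genes, beside 33.8% of all genes.

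Knockdown repeat 2 also had the widest spread over all genes (standard deviation 0.349 on the log2 scale, against 0.232 to 0.243 in the other samples). Its 33 values lay mostly in the upper tail of that spread: their interquartile range ran from 0.42 to 0.68, where that of all genes ran from -0.19 to 0.21. Of the calmodulin genes, Calm2 was at -1.08 and -1.72 in the knockdown and at -0.84 and -1.28 in the rescue, and Calm3 was at -1.32 and -2.40 in the knockdown and at -2.41 and -3.55 in the rescue. Both were thus below control in each sample that carried the shRNAs, and lower in repeat 2 than in repeat 1.

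**Figure D2:**
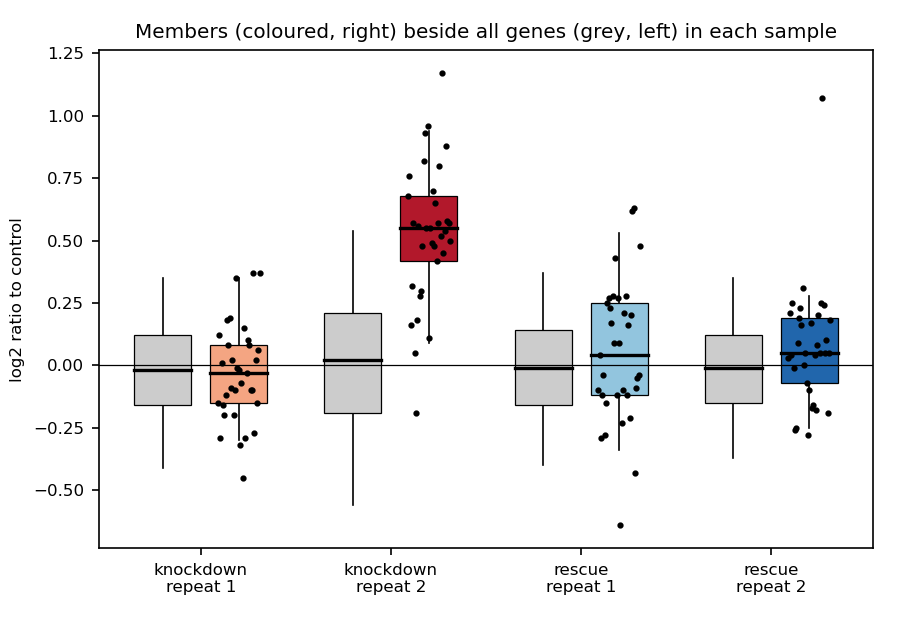
Log2 ratio to control (y axis) in each sample for all 19938 genes (grey) and the 33 interferon and antigen presentation genes (coloured, with 1 dot per gene). Boxes span the quartiles with a line at the median, and whiskers span the 5th to 95th percentile. The members' box lies at 0.42 to 0.68 in knockdown repeat 2 and overlaps the grey box in the other 3 samples.

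Tested over both repeats, no member passed. In the fit of knockdown against control (limma, adjusted p under 0.05 over all genes) 0 of 33 were called, beside 0.306% of all genes. At an unadjusted p under 0.05 there were 8 of 33, all above control, and 3184 of all 19938 genes. Ifit2 passed once the repeat entered the fit as a block (limma adjusted p = 0.0469), beside 1.91% of all genes called higher. That blocked fit made 237 false calls among 437 in simulation. The simulated samples had equal spread, unlike those measured here, so the share of false calls need not be the same in these data. When knockdown replicate 1 was left out, 9 passed, all higher (Cxcl10, Ddx58, Ifih1, Ifit1, Ifit3, Oasl2, Parp14, Psmb9 and Usp18), beside 2.9% of all genes called higher. That fit rests on the lone repeat 2 sample and assumes that it varies as the other groups do. The median over both repeats was 0.24, or 0.55 without knockdown replicate 1 and -0.03 without knockdown replicate 2.

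The letters of the ISRE stand near the start of many of these genes. RefSeq promoter windows of build GRCm38.p6, from 250 bases before to 50 after a transcript's start, were matched for 30 of the 39 members. The ISRE core, searched on both strands as GAAANNGAA followed by a further A, stood in at least 1 window of 16 of the 30 members (53.3%). It was in 45.7% of the members' 35 windows and in 3.44% of all 32851 windows of the same length. The shorter GAAANNGAA, which every core contains, was in 48.6% of the members' windows and in 8.56% of all. The gamma-activated site of STAT dimers, searched as TTCNNNGAA, was in 7 of 35 windows, 20%, and in 8.3% of all. The core of Ddx58, Eif2ak2 and Ifih1 lay after the start and not before it. A match describes letters and not a bound site. The 4 sequences below are the 250 bases before the start of the members with a core there whose mean change was largest, 5′ to 3′ along the gene, with the core in capitals. Cxcl10 and B2m hold 1 copy each, on the gene's own strand, while Ifit3 and Ifit1 each hold it at 2 places and read from the other strand.
Cxcl10 promoter, chr5:92348890-92349139, minus strand: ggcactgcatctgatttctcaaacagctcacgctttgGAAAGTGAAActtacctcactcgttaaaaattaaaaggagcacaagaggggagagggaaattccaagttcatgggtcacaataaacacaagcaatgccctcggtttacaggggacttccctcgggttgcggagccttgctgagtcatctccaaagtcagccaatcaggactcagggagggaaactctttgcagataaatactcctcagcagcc
Ifit3 promoter, chr19:34583279-34583528, plus strand: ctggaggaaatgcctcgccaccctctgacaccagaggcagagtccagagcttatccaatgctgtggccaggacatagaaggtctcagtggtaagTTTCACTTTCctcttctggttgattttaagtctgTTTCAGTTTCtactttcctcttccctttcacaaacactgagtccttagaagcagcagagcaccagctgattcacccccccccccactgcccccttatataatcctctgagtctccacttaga
B2m promoter, chr2:122147437-122147686, plus strand: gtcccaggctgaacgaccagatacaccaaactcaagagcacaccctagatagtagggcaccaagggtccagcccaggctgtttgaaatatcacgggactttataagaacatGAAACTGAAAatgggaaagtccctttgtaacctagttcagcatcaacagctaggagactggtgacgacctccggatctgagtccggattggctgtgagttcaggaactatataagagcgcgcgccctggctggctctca
Ifit1 promoter, chr19:34640639-34640888, plus strand: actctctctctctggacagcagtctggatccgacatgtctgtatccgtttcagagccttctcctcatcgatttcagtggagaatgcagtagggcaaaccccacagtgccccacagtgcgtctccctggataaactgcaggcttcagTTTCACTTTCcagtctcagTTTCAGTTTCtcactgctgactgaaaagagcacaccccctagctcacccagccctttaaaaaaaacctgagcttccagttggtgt
The core began 213 bases before the start in Cxcl10 and 139 in B2m. In Ifit3 the 2 cores began 156 and 122 bases before it, and in Ifit1 104 and 85. Both Ifit genes thus carry the same letters, TTTCACTTTC and then TTTCAGTTTC, in the same order. In knockdown repeat 2 the 13 measured members with a core had a median of 0.50 and the 11 measured members with a window but no core 0.55. All 607 measured genes with a core had a median of 0.03 there.

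The cytoplasmic RNA sensors start the response. Ddx58, which encodes RIG-I, a sensor of viral RNA ends, was at -0.15 and 0.68 in the knockdown and at -0.10 and 0.03 in the rescue. Ifih1, which encodes MDA5, a sensor of long double-stranded RNA, was at 0.12 and 0.76 in the knockdown and at 0.04 and 0.21 in the rescue. For both, knockdown repeat 2 stood apart from 3 samples near control. Their knockdown means were 0.27 for Ddx58 (SE 0.19, n = 2, limma adjusted p = 0.52) and 0.44 for Ifih1 (SE 0.16, adjusted p = 0.247). Dhx58, which encodes the regulator LGP2, followed the repeat more than the group: it was at -0.29 and 0.16 in the knockdown and at -0.29 and 0.04 in the rescue.

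The transcription factors of the pathway did not share a pattern. Stat2 and Irf9, which are parts of the ISRE-binding complex, had knockdown means of -0.16 and -0.07 and rescue means of -0.20 and -0.27, and Stat2 was below control in each sample. Irf7, which drives the later wave of interferon genes and is itself interferon-induced, was at -0.16 and 0.57 in the knockdown and at -0.04 and -0.01 in the rescue. It thus joined the rise of knockdown repeat 2, unlike Stat2. Irf1, a factor induced above all by interferon gamma, was at 0.01 and 0.32 in the knockdown and at -0.12 and 0.25 in the rescue, higher in repeat 2 of both groups. Its 2 probe sets differed in the knockdown (-0.10 and 0.11 in repeat 1, 0.41 and 0.22 in repeat 2). They also differed in the rescue (-0.33 and 0.09 in repeat 1, -0.03 and 0.52 in repeat 2). The former probe set was highest in knockdown repeat 2 and the latter in rescue repeat 2.

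The IFIT proteins, which bind foreign RNA and block its translation, differed among themselves in their pattern over the samples. Ifit1 was at -0.10 and 0.93 in the knockdown and at 0.43 and 0.05 in the rescue. Ifit3 was at -0.01 and 0.96 in the knockdown and at 0.27 and -0.28 in the rescue. In both genes knockdown repeat 2 was highest and the next sample was rescue repeat 1, so the order of the groups changed with the repeat. Ifit2 behaved otherwise: it was at 0.35 and 0.55 in the knockdown and at -0.12 and -0.07 in the rescue. Both knockdown samples of Ifit2 lay above both rescue samples. Its mean against control was 0.45 (SE 0.12, n = 2), the member nearest to the threshold (limma adjusted p = 0.14).

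Genes of the OAS family, some of which encode enzymes that make the messenger that activates RNase L, were mildly above control in most samples. Of 6 measured, 6 were above control in knockdown repeat 2 and in rescue repeat 1, 5 in rescue repeat 2 and 4 in knockdown repeat 1, with medians of 0.39, 0.24, 0.17 and 0.05. Oasl2, a family member with ubiquitin-like domains, departed most, at -0.20 and 0.82 in the knockdown and at 0.09 and -0.00 in the rescue. Oas2 was nearly level at 0.19 and 0.28 in the knockdown, with 0.23 in each rescue sample. Oas1b, the flavivirus resistance gene, was at 0.08 and 0.56 in the knockdown and at 0.27 and 0.19 in the rescue, and Oasl1 at 0.02 and 0.48 in the knockdown and at 0.28 and 0.31 in the rescue. The repeat 2 knockdown sample was again the highest for 5 of the 6, all but Oas1a, beside 33.8% of all genes. Oas1a lay between 0.09 and 0.25 in all 4 samples and Oas3 between -0.09 and 0.30. The Oas1 genes are close copies, so their probe sets may share signal.

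The remaining antiviral effectors repeated the pattern. Usp18, which strips Isg15 from proteins and damps receptor signalling, was at -0.45 and 0.70 in the knockdown and at -0.10 and -0.16 in the rescue, the lowest and the highest value both falling in the knockdown. Parp14, a mono-ADP-ribosyltransferase, was at 0.08 and 0.80 in the knockdown and at -0.21 and 0.05 in the rescue. Gbp3, a guanylate-binding GTPase, was at -0.07 and 0.49 in the knockdown and at -0.23 and -0.17 in the rescue. For Parp14 and Gbp3 both knockdown samples were above both rescue samples, as also for Ifit2, Irf9 and Tap2. These 5 of 33 compare with 16.5% of all genes ordered that way. The reverse order (15.1% of all genes) was not possible for any member, since all 33 were higher in the knockdown than in the rescue in repeat 2.

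Bst2, also called tetherin, which holds budding virus at the cell surface, was at -0.29 and 0.65 in the knockdown and at 0.28 and -0.18 in the rescue. Ifi35, an interferon-induced leucine zipper protein, was at 0.10 and 0.57 in the knockdown and at 0.16 and 0.20 in the rescue. Eif2ak2 (the RNA-activated kinase PKR), Rsad2 (viperin) and Xaf1 (a promoter of apoptosis) lay between -0.12 and 0.25 in the other 3 samples and at 0.42, 0.48 and 0.52 in knockdown repeat 2. Of the Mx GTPases, which trap viral ribonucleoproteins, Mx1 stayed between -0.10 and 0.11. Mx2 instead split by repeat: it was at -0.32 and -0.64 in repeat 1 of the knockdown and rescue and at 0.55 and 0.17 in repeat 2.

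The chemokines, which draw T cells, were the members with the largest mean distance from control in the rescue, over both repeats. Cxcl10 was at -0.10 and 1.17 in the knockdown and at 0.62 and 1.07 in the rescue, so that 3 of its 4 samples stood at least 1.53-fold above control and knockdown repeat 1 at 0.933 of it. Its rescue mean was 0.84 (SE 0.26, n = 2, limma adjusted p = 0.57; 0.00344 when only the rescue columns were fitted, which called 0.883% of all genes). Ccl5 was at 0.37 and 0.45 in the knockdown and at 0.63 and 0.24 in the rescue, above control in each sample (means 0.41 and 0.44, SE 0.13 each, adjusted p = 0.204 and 0.567). Both chemokines were lower in the knockdown than in the rescue in repeat 1 and higher in repeat 2. In the rescue, 0 of 33 members passed against control (limma), beside 0% of all genes, with 3 at an unadjusted p under 0.05 (Ccl5, Cxcl10 and B2m) and 1484 of all 19938 genes.

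Class I antigen presentation had a median of 0.57 in knockdown repeat 2 over its 5 measured genes against 0.02 in knockdown repeat 1 and medians of -0.05 (repeat 1) and 0.05 (repeat 2) in the rescue. Psmb9, an immunoproteasome subunit, was at 0.02 and 0.88 in the knockdown and at -0.09 and 0.10 in the rescue. Psmb8, another such subunit, was at -0.27 and 0.54 in the knockdown and at -0.43 and 0.05 in the rescue. Both subunits were higher in repeat 2 than in repeat 1 in each group, by more in the knockdown. The peptide transporter genes Tap1 and Tap2 were at 0.58 and 0.57 in knockdown repeat 2 and between -0.19 and 0.06 in the other samples. B2m, the light chain of class I molecules, was instead above control throughout, at 0.37 and 0.50 in the knockdown and at 0.48 and 0.18 in the rescue. Its means of 0.43 (SE 0.13, n = 2) and 0.33 did not pass (limma adjusted p = 0.173 and 0.632).

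The comparison of knockdown with rescue within a repeat leaves out the control array, since both ratios share it. In repeat 2 all 33 members were higher in the knockdown than in the rescue, beside 57.7% of all genes, with a median difference of 0.37 (0.05 over all genes). Fibroblast and pericyte markers (10 of 10, median 0.53) and astrocyte markers (14 of 14, median 0.40) were higher in the same comparison. Of the 33 members, 11 were at least 1.5-fold higher, led by Ifit3 at 1.23, Ifit1 at 0.88 and Usp18 at 0.86, beside 3.5% of all genes. In repeat 1, 13 of 33 were higher, beside 48% of all genes, with a median of -0.06, and Cxcl10 (-0.72), Bst2 (-0.58) and Ifit1 (-0.53) were farthest on the other side. As all 33 were higher in repeat 2, the 13 of repeat 1 were also those higher in both repeats (30.1% of all genes). For the same reason no member could be lower in both, as 24.3% of all genes were, so these counts add nothing to those of repeat 1. The set as a whole did not keep a common direction over the repeats. In the fit over both, 0 of 33 passed (limma), beside 0.0702% of all genes, with 1 member at an unadjusted p under 0.05, Ifit2 at 0.55 (SE 0.17, adjusted p = 0.463), and 1359 of all genes. With 2 samples a group such a result does not show that the groups were alike. In simulation this fit, which does not use the shared control, found 25.8% of genes changed 2-fold. With the repeat as a block the fit found 98.2% of them, with 29.4 false among 228 calls. In these data the blocked fit also called 0 of 33 members, beside 0.617% of all genes.

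**Figure D3:**
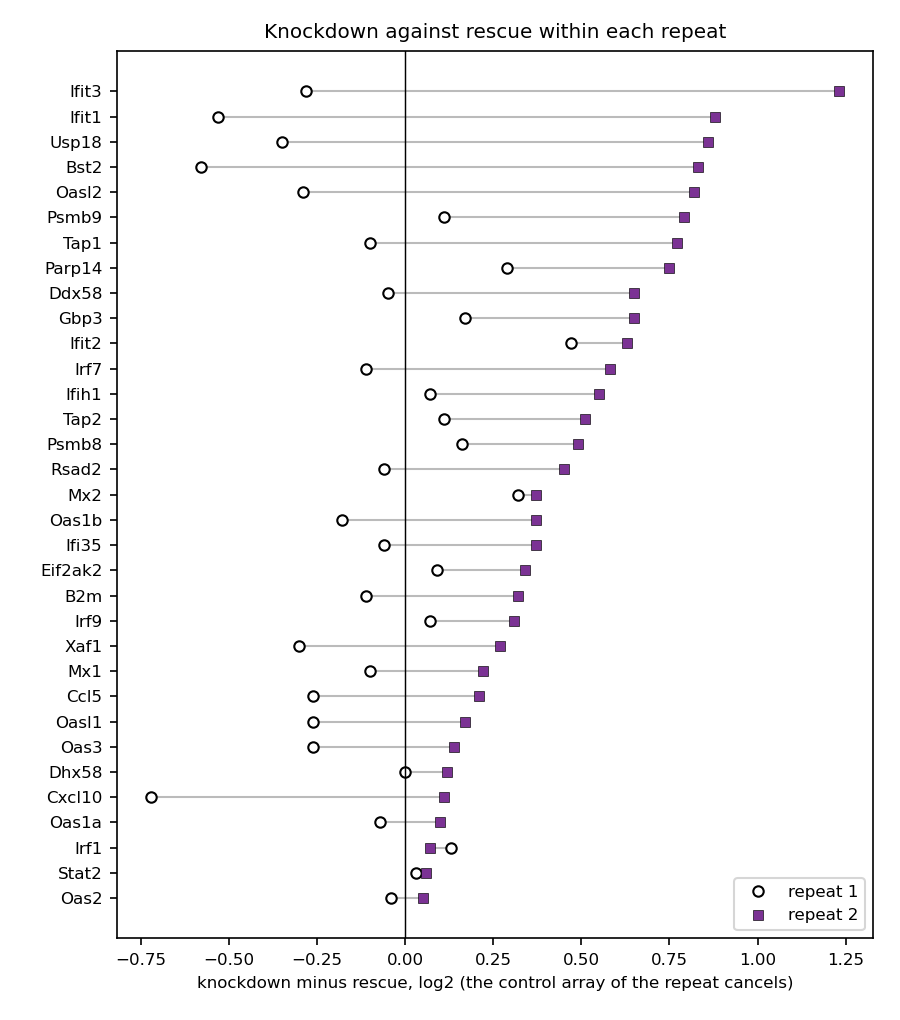
Knockdown minus rescue on the log2 scale (x axis) for each of the 33 genes (rows, in the order of repeat 2), with open circles for repeat 1 and filled squares for repeat 2. The squares all lie above 0, from 0.05 for Oas2 to 1.23 for Ifit3, while 13 of the 33 circles do.

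The repeats were also compared directly. Repeat 2 was above repeat 1 in the knockdown for 32 of 33 members (53.3% of all genes) and in the rescue for 18 (48.7% of all genes). In a fit with group and repeat, 0 of 33 passed for the repeat (limma), beside 0% of all genes, with 9 at an unadjusted p under 0.05 and 2836 of all 19938 genes. Mx2 had the smallest adjusted p (0.84, SE 0.15, adjusted p = 0.125), followed by Cxcl10 (0.86, SE 0.20, adjusted p = 0.163) and Psmb8 (0.65, SE 0.16, adjusted p = 0.167). Each repeat had its own control array, so a difference between the repeats of these genes in test cultures and one in control cultures cannot be told apart here, except between knockdown and rescue.

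Other genes of the pathway were taken from lists by function. Further interferon-stimulated genes went with the members: 34 of 37 measured were above control in knockdown repeat 2 (52.4% of all genes), with a median of 0.42. The other samples had medians of -0.04 (knockdown repeat 1), -0.00 (rescue repeat 1) and 0.02 (rescue repeat 2). Within repeat 2, 35 of the 37 were higher in the knockdown than in the rescue (57.7% of all genes). Gbp7, a guanylate-binding protein, was at -0.04 and 1.02 in the knockdown and at -0.20 and 0.19 in the rescue. Irgm1, an immunity-related GTPase, was at 0.23 and 0.75 in the knockdown and at -0.00 and 0.09 in the rescue. Of this list 0 passed in limma in the knockdown against control (0.306% of all genes). At an unadjusted p under 0.05 there were 9, beside 3184 of all 19938 genes. The blocked fit called Irgm1 and Herc6 (knockdown means 0.49 and 0.47, limma adjusted p = 0.0479 and 0.0468), beside 1.91% of all genes called higher. That fit made 237 false calls among 437 in simulation.

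The rest of the class I route had a smaller median, 0.24 in knockdown repeat 2 over 15 genes, with 11 above control (52.4% of all genes). It was led by Erap1, which trims peptides, at 0.16 and 0.83 in the knockdown and at -0.12 and 0.41 in the rescue (mean 0.49 in the knockdown, limma adjusted p = 0.258; 0.0367 in the blocked fit). Class II genes, whose usual source in brain is microglia, did not follow, with knockdown medians of 0.15 and 0.10 and rescue medians of 0.19 and -0.00 over 7 genes. Receptors and signalling genes had medians between -0.02 and 0.08 in the 4 samples over 16 genes, with single genes on both sides of control, from -0.44 to 0.51. Nucleic acid sensors had a median of 0.15 in knockdown repeat 2 over 18 genes and between -0.01 and 0.03 in the other samples, and among them Samhd1, which depletes nucleotides, was at -0.08 and 0.87 in the knockdown and at -0.09 and 0.13 in the rescue.

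The 14 measured interferon genes had knockdown medians of 0.10 and 0.20 and rescue medians of 0.25 and -0.09, highest in rescue repeat 1. Within repeat 2, all 14 were higher in the knockdown than in the rescue (57.7% of all genes), with a median difference of 0.26. Within repeat 1, 2 were higher (48% of all genes). Ifnl2, an interferon lambda gene, was at 0.72 and 0.40 in the knockdown and at 1.07 and 0.09 in the rescue, highest in both samples of repeat 1 (knockdown mean 0.56, limma adjusted p = 0.257; 0.0473 in the blocked fit). Many interferon alpha genes are near-identical copies, so their probe sets may share signal, and ratios do not show whether any of them was expressed above background. Genes of the NF-kB and inflammatory response had knockdown medians of 0.01 and 0.26 and rescue medians of 0.16 and 0.07 over 17 genes. Vcam1, an adhesion molecule of activated vessels and glia, was at 0.12 and 1.19 in the knockdown and at 0.36 and 0.75 in the rescue (knockdown mean 0.66, limma adjusted p = 0.228; 0.0312 in the blocked fit). Ptgs2, the inducible cyclooxygenase, had the opposite order of groups, at -1.25 and 0.19 in the knockdown and at 2.29 and 2.26 in the rescue. Its knockdown minus rescue of -2.81 did not pass in limma (adjusted p = 0.0748; 0.00757 in the blocked fit), nor did its rescue mean of 2.28 (adjusted p = 0.328; 0.00898 in the blocked fit). In simulation the blocked fit made 237 false calls among 437 for knockdown against control and 29.4 among 228 for knockdown against rescue. It also made 88.2 calls for rescue against control, where no gene had been changed. No gene of the 7 pathway lists passed in limma in the knockdown against control without the block. At an unadjusted p under 0.05 there were 3 of the 14 interferon genes and 3 of the 17 NF-kB and inflammatory genes. The class I, class II, receptor and sensor lists had 1 gene each. Over all 19938 genes there were 3184.

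**Figure D4:**
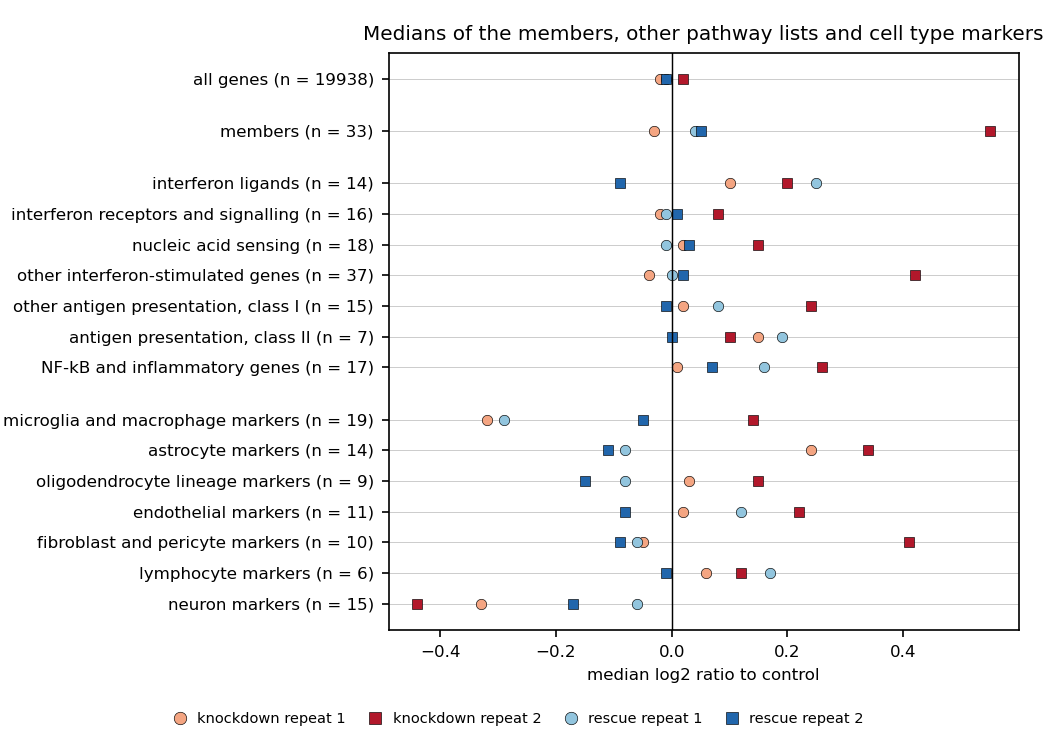
Median log2 ratio to control (x axis) of all genes, the members, 7 other pathway lists and 7 lists of cell type markers (rows, with the number of genes measured), with 1 point per sample in the colours of the groups. The members (0.55) and the other interferon-stimulated genes (0.42) lie farthest to the right in knockdown repeat 2, followed by fibroblast and pericyte markers (0.41) and astrocyte markers (0.34).

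Markers of some other cells of such cultures moved in the same sample. Of all genes, 52.4% were above control in knockdown repeat 2 and 47% in knockdown repeat 1. Near that share in knockdown repeat 2 were markers of the oligodendrocyte lineage (55.6% above control) and of microglia and macrophages (57.9%). Ratios carry no level, so the markers could not be used to check which cell types were present, nor which were absent. In knockdown repeat 2 the median was 0.41 for fibroblast and pericyte markers (9 of 10 above control), 0.34 for astrocyte markers (14 of 14), 0.22 for endothelial markers (8 of 11), 0.15 for the oligodendrocyte lineage (5 of 9), 0.14 for microglia and macrophages (11 of 19) and 0.12 for lymphocytes (6 of 6), and it was -0.44 for neuron markers (3 of 15). In knockdown repeat 1, where the interferon genes were near control, astrocyte markers were at 0.24 (13 of 14) and neuron markers at -0.33 (3 of 15), while fibroblast and pericyte markers were at -0.05, and microglia and macrophage markers were at -0.32. The microglia and macrophage median was -0.29 in rescue repeat 1 and -0.05 in rescue repeat 2, and that of astrocytes -0.08 and -0.11. Marker lists also differed between knockdown and rescue within repeat 2, where all members and 57.7% of all genes were higher in the knockdown. There fibroblast and pericyte markers had a median difference of 0.53 (10 of 10 higher in the knockdown), astrocyte markers 0.40 (14 of 14), oligodendrocyte lineage markers 0.35 (8 of 9), endothelial markers 0.19 (9 of 11), microglia and macrophage markers 0.17 (17 of 19), lymphocyte markers 0.13 (5 of 6) and neuron markers -0.24 (5 of 15). Within repeat 1, 13 of 33 members and 48% of all genes were higher. The difference there was 0.40 for astrocyte markers (14 of 14), 0.07 for microglia and macrophage markers (14 of 19) and -0.03 for fibroblast and pericyte markers (5 of 10). The part of these markers in the rise of the interferon genes was not tested.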

How the data were processed

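The authors deposited, per the series design text, only ratios: each value is the linear ratio of a test array over the control array of its repeat. Background correction, summarization, normalization and genome build are not given in the sources used here. Intensities of the control arrays were not used here. The table held 35399 probe sets, of which GEO's platform annotation gives 21789 exactly 1 gene symbol, 1621 several and 11989 none listed. Ratios were put on the log2 scale and averaged per symbol (19938 genes). Of the 6 members without a value, H2-K1, H2-D1, Isg15, Gbp2 and Oas1g appeared only on probe sets with several symbols, and Ifi44 on none listed. Array number limits the precision.

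The test was limma (version 3.58.1, R 4.3.3; 2 residual and 6.11 prior degrees of freedom) with a coefficient per group, Benjamini-Hochberg adjustment over 19938 genes and a threshold of 0.05. Same-numbered samples share a repeat day per the labels, and deviations of same-numbered samples from their group means correlated at 0.305 across genes, so the repeat as a block was an alternative. The fits were checked on 5 simulations of 19938 genes, 200 of them changed. Without the block, 85.2% of those changed 2-fold were found against control, with 5.8 false among 189 calls. The simulations gave test and control arrays equal noise and all samples equal spread. In the data knockdown repeat 2 had the widest spread (standard deviation 0.349, against 0.232 to 0.243 in the other samples). The rates found in simulation, with or without the block, therefore need not hold for these data.

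Members and lists were chosen with earlier results of these data known. The named-gene rule gives sample by sample the members called with or without the block and the 10 farthest from 0 in each group, between groups and between repeats, and of other lists up to 4 genes. Irf1, Irf7 and Bst2 were added after their values were seen. Promoters are from RefSeq (GRCm38.p6).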

Additional observations from a re-analysis of the deposited data

Results flagged for a closer look

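Ifit2 stood above control in both knockdown samples (0.35 and 0.55) and below it in both rescue samples (-0.12 and -0.07), a difference of 0.55 on the log2 scale. That difference did not pass in limma (adjusted p = 0.463; 0.167 in the fit with the repeat as a block). Of the 33 members it was the only one with both groups on opposite sides of control.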

How the results depend on the processing

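Members past the threshold numbered 0 in each comparison. Against control in the knockdown there was 1 with the repeat as a block (Ifit2), and counts ranged from 0 to 9 with a sample left out. In the rescue there was 1 (Cxcl10) with only the columns of the group fitted, a fit that called 176 of all genes against 0, and 0 to 1 with a sample left out. Quantile normalization, median centring, a robust prior, single probe sets and genes with 1 probe set called 0 members in these comparisons, and no setting called a member in the knockdown against the rescue. The rescue median of 0.01 was 0.02 after quantile normalization and 0.02 after median centring, and ranged from 0.04 to 0.05 with a rescue sample left out. Members at least 1.5-fold from control in both repeats numbered 0 in the knockdown and 1 in the rescue (Cxcl10, higher). Of all genes, 0.281% were that far above and 0.757% that far below control in both knockdown repeats. In both rescue repeats the shares were 0.16% and 0.181%. With the lower fold limit the knockdown had 3 (Ifit2, Ccl5 and B2m), and at 2-fold the rescue had 0. After quantile normalization, an alternative chosen after seeing the data, the median of knockdown repeat 2 was 0.41, and 30 members were higher than in rescue repeat 2.

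With a sample left out, means of single members turned sign. Against control in the knockdown they ranged from -0.10 to 1.17 for Cxcl10, -0.01 to 0.96 for Ifit3 and -0.10 to 0.93 for Ifit1. In the rescue Mx2 ranged from -0.64 to 0.17. Between knockdown and rescue the ranges were -0.00 to 0.96 for Ifit3, -0.09 to 0.78 for Mx2, -0.03 to 0.70 for Tap1, -0.08 to 0.73 for Psmb8 and -0.01 to 0.63 for Ifih1. The repeat coefficient could not be fitted with a sample left out, since no residual degrees of freedom remain. Signal over background could not be judged from ratios, so dim probe sets may be among these values.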
